A study of Homo sapiens with 7 samples.

Results

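The comparison set 2 cultures of HT1080 cells that received test serum against 5 that did not. HT1080 is an established human fibrosarcoma line, a malignant line of fibroblast-like cells. Each culture was read on 1 Affymetrix U133 Plus 2.0 array, and all 7 arrays of the series took part. The cultures with test serum held 5% control serum or 5% serum labelled pycnogenol-positive for 2 h, pycnogenol being an extract of maritime pine bark. In 4 of those without test serum a plant polyphenol was present for 2 h: 11.25 ng/ml of catechin, 6.25 ng/ml of epicatechin or of taxifolin, or 2195 ng/ml of resveratrol. The last was untreated. All cultures came from cells maintained in medium with fetal bovine serum, and the labels do not say whether the medium was still supplemented during the 2 h, where the control serum came from, or what was done to the untreated culture. Of the 54675 probe sets, 20336 had a mean signal of at least 269 over the 7 arrays and were compared, and 9950 genes were read from their brightest probe set. The difference given throughout is the mean log2 signal of the 2 serum arrays minus that of the other 5, so a value of 1 is 2-fold higher with serum. No treatment was repeated, so the spread within each side was the spread between different sera and between different treatments, and it may be technical or biological.

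Serum brings growth factors, lipoproteins and active or latent TGF-beta family proteins to cultured cells. Cholesterol taken up from lipoproteins keeps the SREBP transcription factors in the endoplasmic reticulum, which lowers transcription of the sterol synthesis enzymes. TGF-beta and bone morphogenetic proteins act through SMAD factors on the ID genes and on their own inhibitors, while ATF4 is translated when amino acids are short or protein folding is disturbed and switches on amino acid synthesis and transport.

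Both serum arrays had a lower median signal, 114 and 118, than the 5 others, which ran from 121 to 136, and its part in the results was tested only through the scalings in the closing section. As a measure of RNA quality, the 3'/5' signal ratio of GAPDH was 0.961 to 1.12 over all arrays, and that of ACTB was 2.55 and 2.82 with serum and 2.40 to 4.02 without. The SD of log2 differences over probe sets was 0.315 between the serum arrays, 0.269 to 0.326 between pairs of arrays without test serum and 0.350 to 0.408 across the 2 sides. Cell identity was read from marker genes. Of 15 fibroblast-like markers measured, 12 were above the minimum, among them vimentin (VIM) at 46701 to 50229 over the 7 arrays. The summed signal of the 15 was 207134 to 211806 with serum and 188424 to 204405 without, and 3 of them, FN1, COL4A1 and COL4A2, were called higher. The part of this shift in other results was not tested. None of 10 epithelial markers, 1 of 10 blood cell markers (HBB) and 1 of 8 endothelial markers (TIE1) passed the minimum. HBB, a hemoglobin chain, read 382 and 522 in the serum cultures and 227 to 413 in the others, so the sides overlapped. E-cadherin (CDH1) read at most 88.5 and the leukocyte marker PTPRC at most 79.7 on any array. In such bulk RNA, fewer cells of a kind and less RNA per cell cannot be told apart.

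A minority of transcripts differed between the sides, and more of them were lower with serum than higher. Of the probe sets compared, 492 (2.42%) were called higher with serum and 772 (3.80%) lower by limma's moderated test at an adjusted p below 0.05. Among genes, 300 of 9950 (3.02%) rose and 469 (4.71%) fell, with median differences of 0.50 and -0.58, so most called changes were well below 2-fold. At least 2-fold, with no overlap between the sides, 29 probe sets (0.143%) were higher and 103 (0.506%) lower. At the gene level 11 genes rose and 56 fell under all 3 conditions, 67 genes in all. Where another probe set of the same gene passed the minimum, it moved the same way for 23 of 23 of these genes and for 363 of 390 called genes, against 3308 of 4750 over all genes. That other probe set was itself called in the same direction for 17 of the 23 and for only 135 of the 390. The pycnogenol-positive serum array moved the number of calls most: 1264 probe sets were called with all 7 arrays and 267 without it. Without control serum 833 were called, without the untreated, catechin, epicatechin or taxifolin culture 799 to 882, and without resveratrol 1310. Among the called genes chosen by rule for naming, 53 had another probe set past the minimum. It was called in the same direction for 34 of them and pointed the other way for 1, COL4A2.

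**Figure D1:**
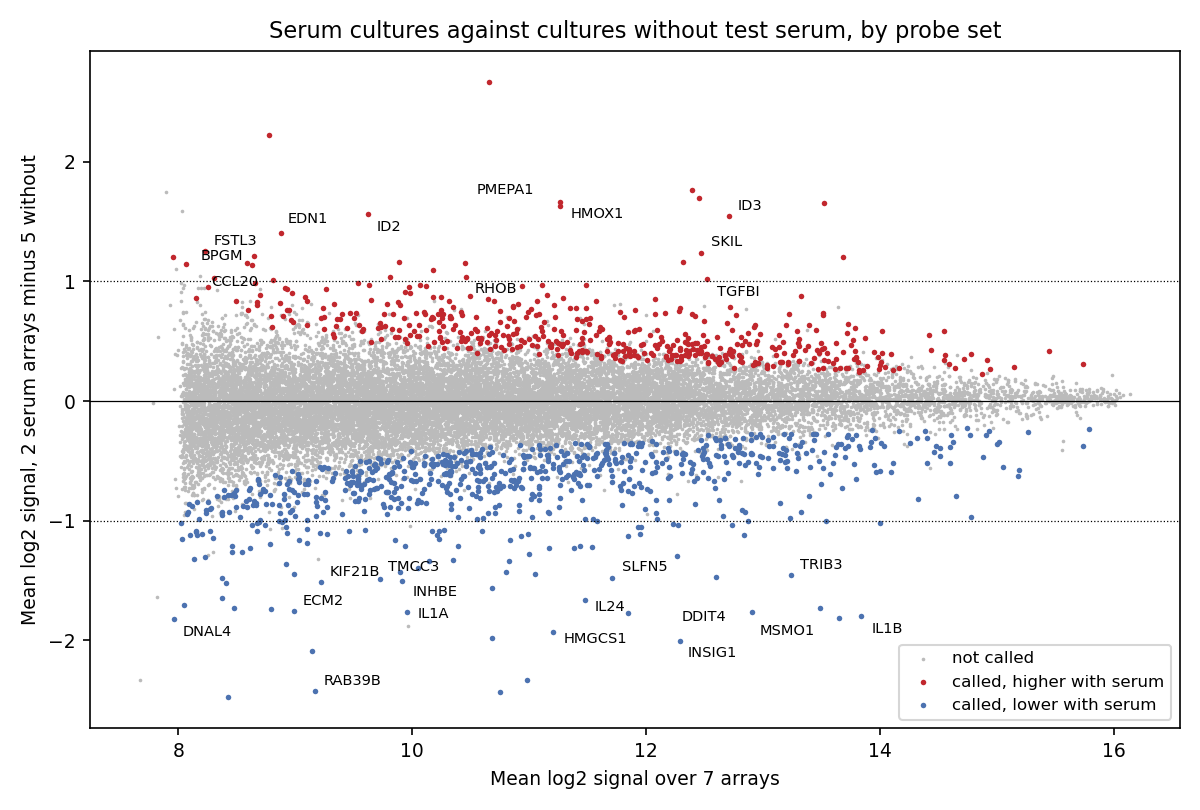
Each point is 1 of the 20336 probe sets, placed by its mean log2 signal over 7 arrays (horizontal) and by the mean log2 signal of the 2 serum arrays minus that of the other 5 (vertical). The 492 red probe sets were called higher and the 772 blue ones lower, dotted lines mark 2-fold, and the named points are the genes with the largest called differences.

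The enzymes of cholesterol synthesis were lower with serum. Of the 20 enzymes listed, 14 passed the minimum, all 14 lay below 0, and 7 were called lower and 0 higher, with a median difference of -0.44 against -0.01 over all genes. This list and those below were chosen with earlier results of these data known. Their counts are therefore description and no independent test. They are to be read beside the shares over all genes, 3.02% called higher and 4.71% lower. HMGCS1, which makes HMG-CoA at the entry to the pathway, read 875 and 939 in the cultures with control and pycnogenol-positive serum. Its signals without test serum were 3860.1, 3277, 3266, 4103 and 2925, in the order catechin, epicatechin, taxifolin, resveratrol and untreated, which is kept below. Every culture without test serum thus read more than 3 times as high as both serum cultures, a difference of -1.93 (SE 0.13, adjusted p = 1.06e-05). Another of its probe sets gave a smaller difference of -0.72 (adjusted p = 0.0291). MSMO1, the oxidase that removes methyl groups from lanosterol derivatives, read 4764 and 5733 with serum and 18728, 20006, 18529, 18325 and 16569 without. Here too the sides stood far apart, by -1.82 (SE 0.09, adjusted p = 1.1e-06), and the lowest array without test serum was the untreated culture. IDI1, which isomerizes the building blocks of the isoprenoid chain, fell to 4216 and 4943 from signals of 8331 to 10085 (difference -1.01, SE 0.10, adjusted p = 0.000206). SQLE, the epoxidase at the first oxygen-requiring step, read 4224 and 4563 against 6458 to 8049.6 (difference -0.67, SE 0.10, adjusted p = 0.00311), and SC5D, the desaturase near the end of the pathway, 2742 and 3063 against 4631 to 5301 (difference -0.75, SE 0.09, adjusted p = 0.00116). HSD17B7 and DHCR7, both late reductases, fell by less, with differences of -0.46 (SE 0.10, adjusted p = 0.0202) and -0.43 (SE 0.12, adjusted p = 0.0496), and the serum signals of each lay below its other 5. With any 1 array left out, 5 or 6 members of the list were called lower.

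The upstream sequence of these genes is shown because the members fell together and CCAAT boxes, bound by NF-Y, are a known partner element of SREBP sites. The motif CCAAT was searched on both strands (CCAAT or its complement) in the 250 bases before the RefSeq start. It was found in 10 of the 12 promoters at hand for sterol enzymes past the minimum (83.3%), in 5 of 6 for the called ones, in 35.6% of promoters of all genes past the minimum and in 33.0% of all 27305 promoters. The called enzyme without it was IDI1, and only called enzymes with a box are printed here. Whether these boxes had a part in the falls was not tested. The sterol regulatory element in the form TCACNCCAC was in none of those 12 windows and in 0.875% of all promoters. The 150 bases before the start of 4 called enzymes are printed 5′ to 3′ in the direction of transcription (RefSeq, GRCh38.p14), with the CCAAT boxes in capitals, for MSMO1 (chr4:165327519-165327668, plus strand), HMGCS1 (chr5:43313413-43313562, minus strand), SC5D (chr11:121292621-121292770, plus strand) and DHCR7 (chr11:71448394-71448543, minus strand).
MSMO1: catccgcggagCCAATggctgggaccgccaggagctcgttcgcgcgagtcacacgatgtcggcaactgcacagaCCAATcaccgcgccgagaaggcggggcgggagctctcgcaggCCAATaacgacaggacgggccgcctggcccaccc
HMGCS1: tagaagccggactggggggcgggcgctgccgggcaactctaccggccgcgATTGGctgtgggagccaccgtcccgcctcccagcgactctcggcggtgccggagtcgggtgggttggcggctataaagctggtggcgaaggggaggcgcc
SC5D: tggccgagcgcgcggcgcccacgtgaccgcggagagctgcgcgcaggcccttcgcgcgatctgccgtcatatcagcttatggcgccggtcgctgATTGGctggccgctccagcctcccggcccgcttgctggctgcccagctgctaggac
DHCR7: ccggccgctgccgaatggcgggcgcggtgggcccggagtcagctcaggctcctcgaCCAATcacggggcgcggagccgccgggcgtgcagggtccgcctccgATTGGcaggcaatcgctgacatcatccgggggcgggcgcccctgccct
MSMO1 had 3 such boxes in this stretch, at 139 to 34 bases before the start, and DHCR7 had 2, while the single box of HMGCS1 here lay 100 bases before the start and that of SC5D 56 bases.

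INSIG1, the membrane protein that holds the SREBP complex back in the endoplasmic reticulum and is itself an SREBP target, had the largest fall among genes of sterol control. It read 1889 and 1821 with the 2 sera and 8806, 7791, 7150.2, 7337 and 6287 without. The serum signals were nearly equal and far below the others, a difference of -2.002 (SE 0.12, adjusted p = 2.33e-06), and another probe set of the gene gave -2.33. STARD4, a carrier of cholesterol between membranes, read 1305 and 1202 with serum and 2441 to 3314 without (difference -1.23, SE 0.12, adjusted p = 0.000304). NPC1, which exports cholesterol from lysosomes, fell to 6584 and 7946 from signals of 11006 to 13649.7 (difference -0.80, SE 0.10, adjusted p = 0.001), and LPIN1, a phosphatidate phosphatase, to 2451 and 2444 from 3625 to 4472 (difference -0.74, SE 0.10, adjusted p = 0.00166). These 4 were the called members of 15 past the minimum in the list of SREBP control and sterol traffic, none was called higher, and the median was -0.27. All 4 calls held with any 1 array left out, but the list median was -0.12 with the control serum alone and -0.09 with the other serum alone.

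In the fatty acid list 3 of 18 members were called lower and 0 higher, with a median of -0.17. CPT2, the inner-membrane carnitine transferase of mitochondrial fatty acid import, differed by -0.53 (SE 0.11, adjusted p = 0.016), SCD, the stearoyl-CoA desaturase, by -0.38 (SE 0.07, adjusted p = 0.0133), and ACADVL, the first dehydrogenase of long-chain oxidation, by -0.35 (SE 0.09, adjusted p = 0.0369). The calls of all 3 were lost without the pycnogenol-positive serum array, that of CPT2 also without the control serum array, and that of ACADVL with any 1 array left out.

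Targets of TGF-beta and BMP signalling were the list with the most called rises. Of 20 members past the minimum, 8 were called higher and 1 lower, and the median was 0.35 (0.22 without the control serum array). The ID proteins, helix-loop-helix inhibitors of differentiation factors, rose together. ID3 read 13508 and 15364 with serum and 4812, 4794, 5458, 4998 and 4681 without, so that the cultures without test serum lay close to one another and all well below both serum cultures, with a difference of 1.54 (SE 0.09, adjusted p = 2.33e-06), or 2.92-fold. ID2 read 1698 and 1719 with serum and 572, 691, 451, 740.0 and 493 without (difference 1.56, SE 0.19, adjusted p = 0.00102). Its serum signals were almost equal, and the other cultures spread over 451 to 740. ID1, the brightest of the 3, read 14621 and 17179.8 against 7250.2 to 10899.8 (difference 0.88, SE 0.13, adjusted p = 0.00277), with the resveratrol culture highest among those without test serum.

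The feedback inhibitors of the pathway rose as well. PMEPA1, which sequesters receptor-activated SMADs, read 4943 and 6280.2 with serum and 1721, 1496, 1813, 2268 and 1618 without, the largest rise among all genes read from their brightest probe set. Its difference was 1.66 (SE 0.15, adjusted p = 0.00015), and another of its probe sets gave 2.67. SKIL, a SMAD corepressor, read 11898 and 9224 with serum and 5014, 4784, 4571, 3390.2 and 4619 without (difference 1.24, SE 0.14, adjusted p = 0.000837), and its lowest signal was in the resveratrol culture. SMAD7, the inhibitory SMAD, read 1911 and 2044 against 995 to 1334 (difference 0.74, SE 0.13, adjusted p = 0.006). BAMBI, a decoy receptor, read 897 and 986 against 471 to 752 (difference 0.69, SE 0.17, adjusted p = 0.0386). SMAD6 lay higher in both serum cultures, at 386 and 398 against 166 to 261, but its difference of 0.83 did not pass (adjusted p = 0.0658). TGFBI, a secreted matrix adhesion protein named for its induction by TGF-beta, rose to 9321 and 10109 from signals of 3733 to 5486 (difference 1.02, SE 0.14, adjusted p = 0.00178). TSC22D1 went the other way by -0.45 (SE 0.08, adjusted p = 0.00772), although another of its probe sets differed by 0.03, and it was not called without the pycnogenol-positive serum array. With 1 array left out, 7 to 9 of the list were called higher, except that 5 were without the pycnogenol-positive serum array. The BMP element GGCGCC, which reads the same on both strands, was searched in the 250 bases and was in 5 of the 9 promoters of called members (55.6%) and 6 of the 17 of all members past the minimum (35.3%), but also in 5 of 6 of the called sterol enzymes (83.3%), in 26.9% of promoters of genes past the minimum and in 16.1% of all.

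Outside that list, HMOX1, heme oxygenase, which breaks down heme, had the second largest rise. It read 5892 and 5155 with serum and 1883, 1814, 2015, 1436 and 1801 without, a 3.1-fold difference (1.63 on the log2 scale, SE 0.13, adjusted p = 4.95e-05) with the resveratrol culture lowest. Other genes of the NRF2, heme and iron list divided: of 22 past the minimum 3 were called higher and 2 lower, and the median was 0.01. GCLM, the modifier subunit of the glutathione-synthesis ligase, rose by 0.46 (SE 0.07, adjusted p = 0.00356) and SRXN1, which repairs peroxiredoxins, by 0.60 (SE 0.11, adjusted p = 0.0106). TFRC, the transferrin receptor, differed by -0.38 (SE 0.05, adjusted p = 0.00117), and SLC7A11, the cystine importer, was the other gene that fell. The calls of GCLM and SRXN1 were lost without the pycnogenol-positive serum array, and that of SRXN1 also without the control serum array. EDN1, the vasoconstrictor peptide endothelin, read 984 and 901 with serum and 356, 402, 393, 378 and 273 without, with the untreated culture lowest (difference 1.40, SE 0.18, adjusted p = 0.00151). Another EDN1 probe set differed by 0.68 and was not called (adjusted p = 0.129). RHOB, a small GTPase of the actin cytoskeleton, read 2281 and 2441 against 927 to 1502 (difference 1.04, SE 0.18, adjusted p = 0.00626). The chemokine CCL20 read 816 and 673 against 325 to 454 (difference 1.01, SE 0.18, adjusted p = 0.00791). BPGM, which makes bisphosphoglycerate, read 666 and 804 against 292 to 339 (difference 1.21, SE 0.17, adjusted p = 0.00227). FSTL3, a secreted inhibitor of activin, read 582 and 536 against 167 to 313 (difference 1.25, SE 0.27, adjusted p = 0.02), and its mean without test serum lay below the minimum of 269. Of these, BPGM and RHOB were not called without the pycnogenol-positive serum array (adjusted p = 0.0556 and 0.0805), CCL20 without the control serum array (0.0808), and FSTL3 without either (0.131 without the pycnogenol-positive serum array and 0.114 without the other).

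**Figure D2:**
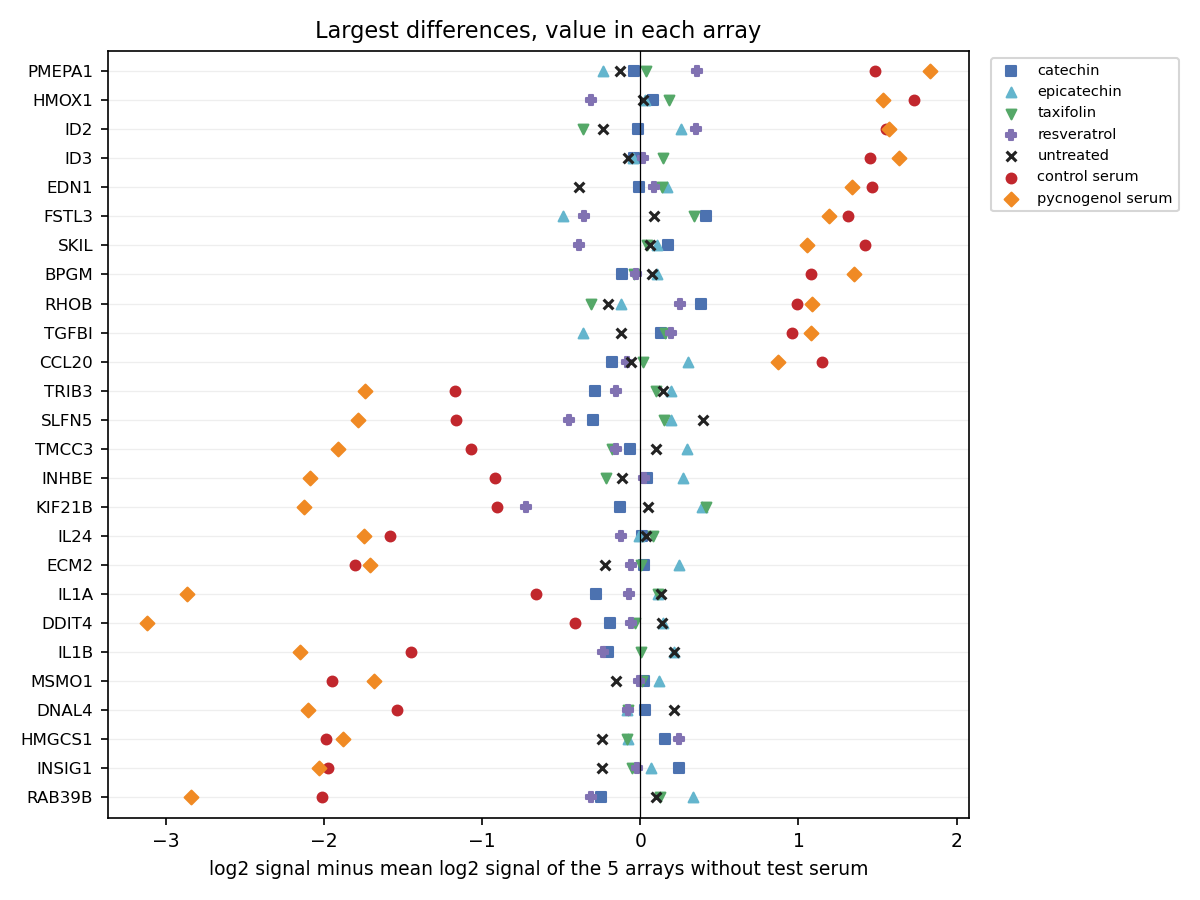
For the 11 genes with a called rise of at least 2-fold and the 15 largest falls, each mark is the log2 signal of 1 array minus the mean of the 5 arrays without test serum. That both serum marks lie outside the range of the other 5 for each gene follows from the choice of the genes. The 2 sera nearly coincide for ID2 and INSIG1 and lie far apart for DDIT4 and IL1A.

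The ATF4 stress response was the list with the most called falls. All 27 listed genes passed the minimum and lay below 0, 23 were called lower and 0 higher, and the median was -0.58 (-0.43 with control serum, -0.72 with pycnogenol-positive serum). As with the other lists, the members were chosen with earlier results of these data known, so these counts are no independent test. ATF4 itself, the transcription factor, read 33855 and 23348 with serum and 42991, 43034, 45462, 37361 and 41427 without (difference -0.58, SE 0.11, adjusted p = 0.0129). TRIB3, a pseudokinase that restrains ATF4 and AKT, read 5735 and 3868 with serum and 10602, 14766, 13819.8, 11634 and 14241 without. Both serum cultures were lowest, the pycnogenol-positive one more so, and the difference was -1.45 (SE 0.15, adjusted p = 0.000411). DDIT3, the stress factor CHOP, read 2052 and 1026 against 2557 to 3881 (difference -1.23, SE 0.23, adjusted p = 0.00875). DDIT4, which brakes mTORC1, read 8185 and 1253 with serum and 9525, 12014, 10654, 10467 and 11957 without. Most of its difference of -1.76 (SE 0.47, adjusted p = 0.0474) came from the pycnogenol-positive serum, at -3.12, while the control serum lay -0.41 from the mean of the others, and the call was lost without the former (adjusted p = 0.152) and without each of the 5 arrays of the other side. CHAC1, a glutathione-degrading enzyme, showed the same shape at 1077 and 143 against 1273 to 1852 and did not pass (difference -1.88, adjusted p = 0.0531).

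Genes of amino acid supply fell in the same comparison. CTH, which makes cysteine from cystathionine, read 2534 and 1742 against 3861 to 5275 (difference -1.13, SE 0.16, adjusted p = 0.00202). SLC7A11, the cystine importer, read 8732 and 5982 against 13735 to 15535, and 2 of its probe sets gave -1.004 and -0.98. PSPH, the last enzyme of serine synthesis, differed by -0.64 (SE 0.08, adjusted p = 0.00121), and MTHFD2, a mitochondrial folate enzyme, by -0.55 (SE 0.07, adjusted p = 0.000953). ALDH1L2, another mitochondrial folate enzyme, fell further, by -1.09 (SE 0.13, adjusted p = 0.00115). The transcription factors JDP2 (1249 and 1101 against 2069 to 3327, difference -1.11) and CEBPG (-0.86), the lipoprotein receptor VLDLR (1322 and 662 against 1839 to 2865, difference -1.34) and the stress regulator NUPR1 (-0.86) were also called lower. Changes were small in the transporters SLC3A2 (-0.49), SLC38A2 (-0.36), SLC7A5 (-0.35) and SLC7A1 (-0.34) and in ASNS, which makes asparagine (-0.28), though each was called. The 4 members not called were CHAC1, PHGDH, CBS and PPP1R15A. The number called lower was 23 without the control serum array, 16 to 21 with 1 of the other 5 left out and 7 without the pycnogenol-positive serum array.

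**Figure D3:**
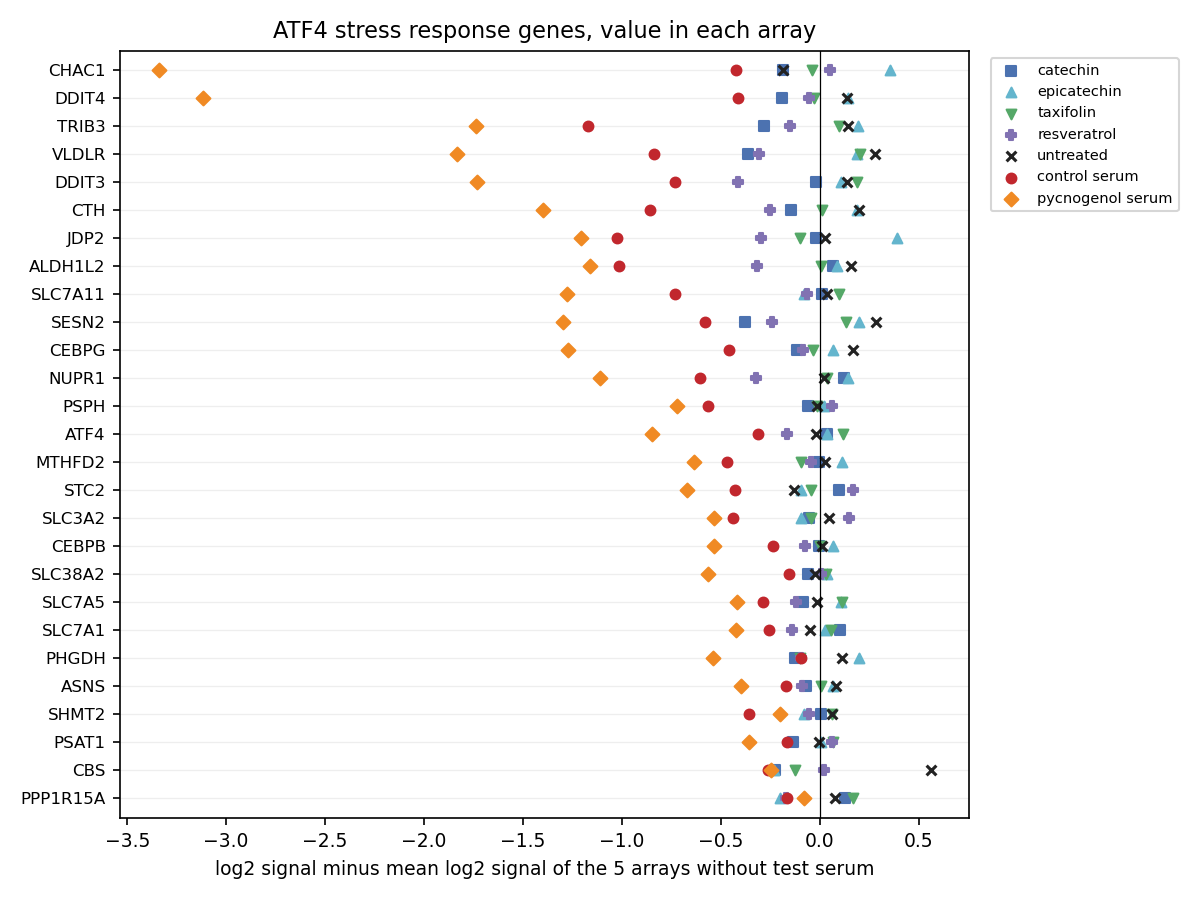
The 27 genes of the ATF4 list are shown as log2 signal of each array minus the mean of the 5 arrays without test serum, ordered by the mean difference of both sera. The pycnogenol-positive serum lies furthest to the left for most genes, by the widest margin for CHAC1 and DDIT4, and the control serum lies left of 0 for all 27.

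The composite site TGATGNAA, a form bound by ATF4 with C/EBP partners, was in 1 of 18 promoters of called ATF4-list genes (5.56%). Its share was 1.40% for genes past the minimum, 2.15% for all genes called lower, 2.33% for those called higher and 3.19% for all promoters. ASNS, the textbook example of such a site, is the called gene of the list that held it, and its 150 upstream bases are shown for that reason (chr7:97872409-97872558, minus strand, GRCh38.p14, the site in capitals, 68 bases before the start).
ASNS: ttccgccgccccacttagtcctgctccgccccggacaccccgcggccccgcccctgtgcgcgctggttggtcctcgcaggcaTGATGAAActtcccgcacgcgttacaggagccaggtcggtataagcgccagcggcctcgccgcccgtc
The ASNS transcript itself read 23453 and 19992 with serum and 24782 to 27877 without, a difference of -0.28 (SE 0.07, adjusted p = 0.0431).

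Aminoacyl-tRNA synthetases, several of which are ATF4 targets, fell in part: 5 of 17 were called lower and 0 higher, with a median of -0.15. By brightest probe set the largest called fall was in AARS1, the alanine enzyme, at -0.45 (SE 0.08, adjusted p = 0.00942), and the smallest in SARS1, the serine enzyme, at -0.28 (SE 0.07, adjusted p = 0.0395). Another SARS1 probe set gave a much larger difference of -1.29 (adjusted p = 0.0023), so its size is not settled. Other probe sets of CARS1, EPRS1 and WARS1 gave -0.60, -0.23 and -0.07. None of the 5 was called without the pycnogenol-positive serum array. RARS1, the arginine enzyme, read 20201 and 5802 in the 2 serum cultures and 4149.9 to 10429.6 in the others, so its sides overlapped and its difference of 0.76 did not pass (adjusted p = 0.301). Chaperones of the endoplasmic reticulum did not follow the ATF4 genes: 3 of 20 were called higher and 1 lower, with a median of 0.04. SDF2L1, a chaperone complex member, rose by 0.83 (SE 0.14, adjusted p = 0.00479) and MANF, a secreted folding-stress factor, by 0.45 (SE 0.11, adjusted p = 0.033). DNAJC3, a cochaperone, rose by 0.33 (SE 0.08, adjusted p = 0.0399). XBP1, the transcription factor of the unfolded protein response, was the member that fell, at 5196 and 2956 against 5817 to 6615 (difference -0.67, SE 0.16, adjusted p = 0.0328). None of these 4 was called without the pycnogenol-positive serum array, and with 1 of the other 6 left out 1 or 2 of the list were called higher.

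Cytosolic heat shock genes rose. Of 14 past the minimum 7 were called higher and 0 lower, 13 lay above 0, and the median was 0.28. DNAJB4, a cochaperone of HSP70, read 3232 and 3265 with serum and 1918, 1742, 1898, 2043 and 1546 without, and its serum values were nearly equal (difference 0.84, SE 0.12, adjusted p = 0.00232). HSPH1, a nucleotide exchange factor of HSP70, read 21780.4 and 22376 against 12966 to 16458 (difference 0.58, SE 0.08, adjusted p = 0.00227). DNAJB1 rose by 0.52 (SE 0.12, adjusted p = 0.0277) and DNAJA1 by 0.43 (SE 0.07, adjusted p = 0.00376), both HSP40 cochaperones. STIP1, which links HSP70 to HSP90, rose by 0.42 (SE 0.10, adjusted p = 0.0263), and CHORDC1 and HSP90AB1 rose by 0.28 and 0.27 (adjusted p = 0.0201 and 0.0165). With 1 array left out 5 to 7 were called higher, except that 3 were without the pycnogenol-positive serum array. HSPA1A, HSPA1B, HSPA8 and HSPB1 were not among the genes compared.

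Interleukins of the IL-1 family and IL24 fell while IL11 and CCL20 rose. Of 10 cytokine genes past the minimum 2 were called higher and 3 lower. IL1B, the secreted pyrogen interleukin 1 beta, read 7662 and 4718 with serum and 18176, 24301, 21028, 17774 and 24251 without. Even the higher serum signal was well under the lowest of the other 5, a difference of -1.80 (SE 0.17, adjusted p = 0.00016). IL24, a cytokine of the IL-10 family, read 1318 and 1180.0 with serum and 3988, 3931, 4184, 3626 and 4051 without, with a narrow spread on each side (difference -1.66, SE 0.10, adjusted p = 2.33e-06). IL1A, interleukin 1 alpha, read 889 and 193 with serum and 1158, 1519, 1517, 1339 and 1536 without. The 2 sera differed more from each other than the control serum did from the rest, and the difference of -1.76 (SE 0.40, adjusted p = 0.0248) was not called without the pycnogenol-positive serum array (-0.66, adjusted p = 0.112), nor without epicatechin or the untreated culture. IL11, an IL-6 family cytokine and TGF-beta target, read 1596 and 1998 against 877 to 1077 (difference 0.87, SE 0.13, adjusted p = 0.00362), a call lost without the same array (adjusted p = 0.0697). In the NF-kB pathway 1 of 13 members was called in each direction, against 3.02% higher and 4.71% lower over all genes. So few calls are not read as a result about the list. IKBKB, the kinase that releases NF-kB, differed by -0.76 (SE 0.11, adjusted p = 0.00312), and BIRC2, an inhibitor of apoptosis, rose by 0.49 (SE 0.07, adjusted p = 0.0034). Among interferon response genes 1 of 20 was called higher and 2 lower, against the same shares over all genes. SLFN5, a Schlafen family member, read 1999 and 1300.3 against 3283 to 5906 (difference -1.47, SE 0.22, adjusted p = 0.00311), IFIT2, an inhibitor of viral translation, 176 and 184 against 257 to 569 (difference -1.08, SE 0.28, adjusted p = 0.0431), and GBP1, a guanylate-binding protein, 4253 and 4211 against 2583 to 2960.2 (difference 0.62, SE 0.10, adjusted p = 0.00366). The calls of IKBKB and SLFN5 were lost without the pycnogenol-positive serum array, and that of IFIT2, whose serum signals lay below 269, without any array but taxifolin.

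Genes that are switched on by FOXO factors or when growth factors are withdrawn were lower. Of 18 past the minimum 8 were called lower and 0 higher, with a median of -0.30. CCNG2, an unconventional cyclin and FOXO target, read 1974 and 1338 with serum and 3785, 3817, 3884, 3331 and 4157 without, a clear separation (difference -1.22, SE 0.14, adjusted p = 0.000736). CITED2, a coactivator-binding regulator, fell to 2542 and 2355 from signals of 3249.7 to 3836 (difference -0.51, SE 0.10, adjusted p = 0.0103), and IRS2, an insulin receptor substrate, to 5842 and 4857 from 6646 to 7282 (difference -0.37, SE 0.09, adjusted p = 0.0328). PNRC1, a nuclear receptor coactivator, read 559.6 and 394 with serum and 1177, 1857, 1169, 635 and 1993 without. Its resveratrol signal lay next to the serum values and apart from the other 4, and the difference was -1.43 (SE 0.35, adjusted p = 0.0333). MXI1, a MYC antagonist, differed by -0.53, RBL2, a retinoblastoma relative, by -0.39, and catalase, CAT, by -0.28 (adjusted p = 0.0285, 0.0363 and 0.0477). KLF9, a Kruppel-like factor and glucocorticoid target, read 1251 and 436 with serum and 1407 to 2037 without (difference -1.21, SE 0.30, adjusted p = 0.033), and another of its probe sets gave -0.40. This list was fragile: 2 to 4 were called lower without catechin, epicatechin, taxifolin or the untreated culture, 8 without resveratrol, 5 without the control serum array and 1 without the pycnogenol-positive serum array.

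The immediate early factors, transcription factors that serum induces within minutes in resting cells, were not higher at 2 h. Of 21 past the minimum 0 were called higher and 4 lower, with a median of -0.11 that was -0.03 without the pycnogenol-positive serum array. KLF4, a Kruppel-like factor, read 1639.9 and 652 with serum and 2724, 3383, 2864, 2249 and 2969 without, lowest by far with pycnogenol-positive serum (difference -1.44, SE 0.27, adjusted p = 0.00907). IER3, a survival regulator, JUND, an AP-1 subunit, and BTG1, an antiproliferative factor, differed by -0.40, -0.41 and -0.39 (adjusted p = 0.0112, 0.0222 and 0.0106). None of the 4 was called without the pycnogenol-positive serum array, nor JUND without the control serum array. FOS, FOSB and the EGR genes other than EGR1 were not among the genes compared. In the MAPK feedback list 2 of 14 were called higher and 3 lower. DUSP7 and DUSP10, phosphatases of MAP kinases, rose by 0.80 (SE 0.17, adjusted p = 0.0176) and 0.45 (SE 0.10, adjusted p = 0.02). DUSP5, a nuclear ERK phosphatase, and SPRY2, an inhibitor of receptor tyrosine kinase signalling, differed by -0.52 (SE 0.09, adjusted p = 0.00573) and -0.54 (SE 0.09, adjusted p = 0.00428), and PHLDA1 by -0.25 (SE 0.06, adjusted p = 0.0289). No member of this list was called without the pycnogenol-positive serum array.

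Targets of SRF, the factor that couples actin to transcription, tended upward. Of 19 past the minimum 4 were called higher and 0 lower, and the median was 0.14. TPM1, a tropomyosin, read 30017 and 34269 with serum and 22849, 20453, 22554, 20818 and 20123 without (difference 0.59, SE 0.07, adjusted p = 0.00115). SRF itself read 1231 and 1205 against 703 to 976 (difference 0.60, SE 0.14, adjusted p = 0.0307), CNN2, a calponin, differed by 0.52 (SE 0.13, adjusted p = 0.0399), and ANKRD1, a muscle ankyrin repeat protein, by 0.42 (SE 0.11, adjusted p = 0.048). With either serum array left out, or catechin, epicatechin or taxifolin, 1 was called. TAGLN, another smooth muscle actin-binding gene, read 379 and 493 against 186 to 332 and did not pass (adjusted p = 0.0995).

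Secreted, matrix and vascular genes divided. VEGFA, the vascular endothelial growth factor, read 12060.1 and 8156 with serum and 18532, 21060.4, 21506, 19038 and 20265 without, and every culture without test serum lay above both sera (difference -1.02, SE 0.12, adjusted p = 0.000893). PTGS2, the inducible cyclooxygenase, read 209 and 172 against 322 to 394 (difference -0.93, SE 0.20, adjusted p = 0.0192), with both serum signals below 269. THBS1, the matrix protein thrombospondin, rose by 0.55 (SE 0.10, adjusted p = 0.00824), EGFR differed by -0.49 (SE 0.11, adjusted p = 0.0262), and GDF15, a stress cytokine, by -0.47 (SE 0.12, adjusted p = 0.0406) with overlapping sides. PTGS2, THBS1 and EGFR were not called without the pycnogenol-positive serum array, nor EGFR without catechin or taxifolin. Of 19 proteolysis genes 0 were called higher and 2 lower, against 3.02% and 4.71% over all genes. PLAT, tissue plasminogen activator, read 6084 and 6914 with serum and 11264, 15733, 10632, 11076 and 13706 without (difference -0.93, SE 0.14, adjusted p = 0.00302), and MMP1, interstitial collagenase, 990.0 and 1180.1 against 1575 to 2089.8 (difference -0.66, SE 0.14, adjusted p = 0.0161). The MMP1 call was lost without either serum array (adjusted p = 0.121 without control serum and 0.0571 without the other). FN1, fibronectin, read 10325 and 10757 against 6343 to 7571 (difference 0.62, SE 0.09, adjusted p = 0.00259), and COL4A1, a basement membrane collagen, 13437 and 13966 against 7196 to 9689 (difference 0.73, SE 0.10, adjusted p = 0.00199); both are among the fibroblast-like markers above.

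Among hypoxia and glycolysis genes 1 of 25 was called higher and 4 lower, and the median was -0.01. Over all genes 3.02% were called higher and 4.71% lower. PFKFB3, which makes the allosteric activator of glycolysis, rose by 0.59 (SE 0.10, adjusted p = 0.0059), while VEGFA, SLC2A3, a glucose transporter (-0.54, adjusted p = 0.0281), NDRG1 (-0.53, adjusted p = 0.00313) and ANKRD37 (-0.49, adjusted p = 0.0299) fell. VEGFA alone of these 5 was still called without the pycnogenol-positive serum array. Circadian clock genes gave 2 of 13 higher and 1 lower: NPAS2, a CLOCK paralog, differed by -0.83 (SE 0.13, adjusted p = 0.00404), its partner BMAL1 by 0.74 (SE 0.19, adjusted p = 0.0427) and the repressor BHLHE40 by 0.38 (SE 0.09, adjusted p = 0.0333). The BMAL1 call rested on 1 probe set, as another differed by 0.19, and without either serum array neither BMAL1 nor BHLHE40 was called. Of 10 glucocorticoid targets, FKBP5, a cochaperone of the receptor, rose by 0.52 (SE 0.10, adjusted p = 0.0124), a call lost without either serum array, and KLF9 fell.

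Housekeeping lists of oxidative phosphorylation and ribosomal proteins were near the background. None of 20 oxidative phosphorylation subunits and none of 14 ribosomal proteins was called by limma, 0 of them had an unadjusted p below 0.05, and the lists had medians of 0.01 and 0.03. In G1/S and DNA replication 2 of 30 were called higher and 0 lower, and the median was 0.13. Over all genes 3.02% were called higher and 4.71% lower. The few calls here and in the mitosis, MYC and p53 lists are therefore not read as results about those lists. Of the 30, 25 lay above 0, against 4781 of all 9950 genes. CDC25A, the phosphatase that activates cyclin-dependent kinase at G1/S, read 1502 and 2067 against 919 to 1193 (difference 0.76, SE 0.15, adjusted p = 0.0124), and CCND3, a D-type cyclin, 2901 and 2989 against 1721 to 2095 (difference 0.58, SE 0.11, adjusted p = 0.00875). In G2/M and mitosis 2 of 20 rose, the kinases CDK1 by 0.41 (SE 0.06, adjusted p = 0.00336) and AURKA by 0.43 (SE 0.08, adjusted p = 0.0112). None of these 4 was called without the pycnogenol-positive serum array. In MYC and ribosome biogenesis 1 of 19, NOP16, was called higher, by 0.42 (SE 0.09, adjusted p = 0.0176). In that list 17 of the 19 lay above 0, with a median of 0.15. Of 19 p53 targets 0 were higher and 2 lower, SESN2, a sestrin that is also an ATF4 target (-0.94, adjusted p = 0.0231), and CCNG1, cyclin G1 (-0.31, adjusted p = 0.0274). NOP16, SESN2 and CCNG1 were not called without the pycnogenol-positive serum array.

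**Figure D4:**
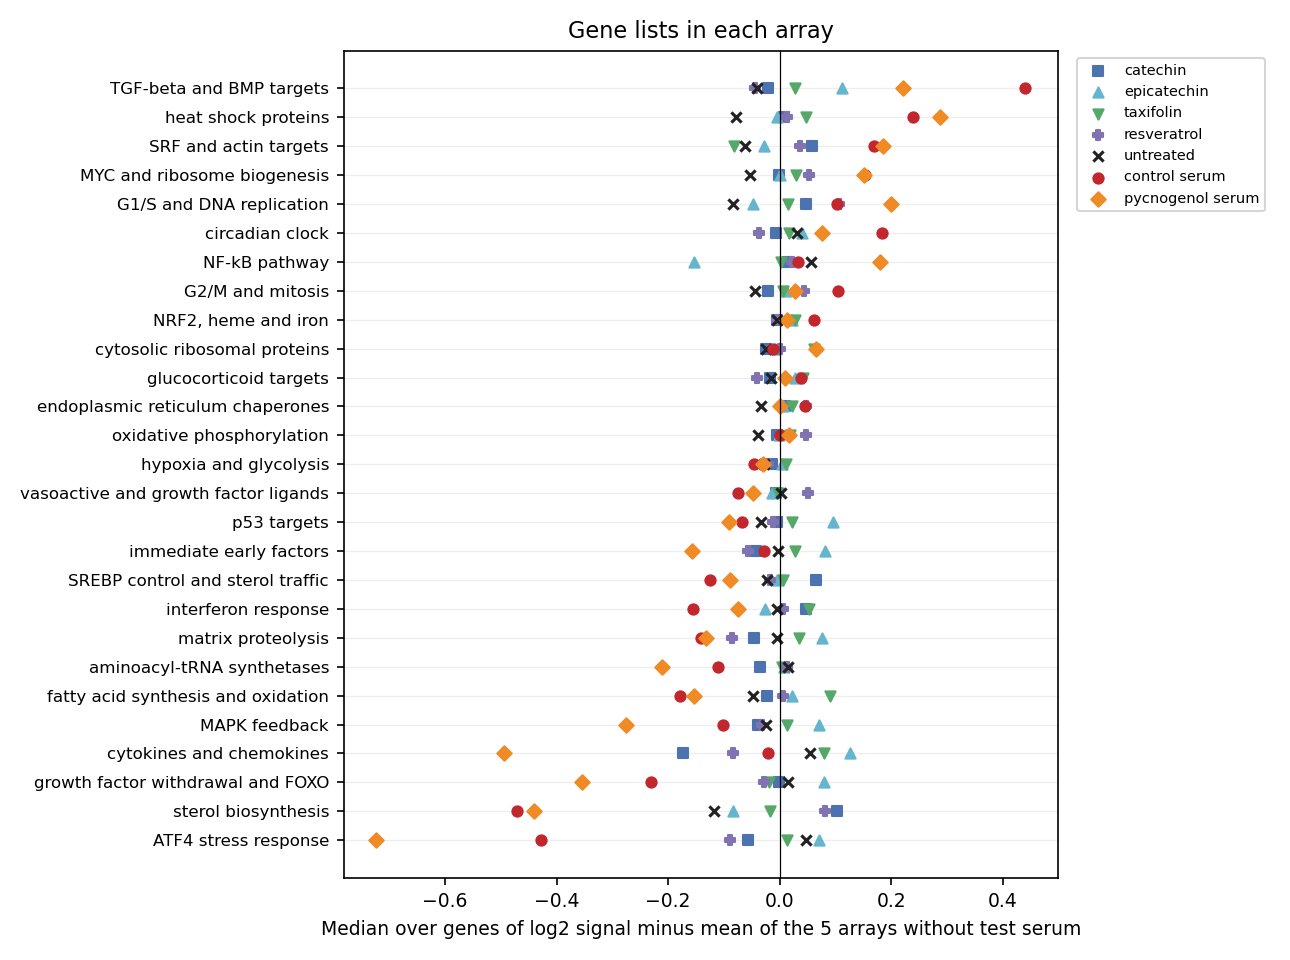
For each of the 27 gene lists a mark gives, per array, the median over its genes of log2 signal minus the mean of the 5 arrays without test serum. Both serum marks lie furthest right for TGF-beta and BMP targets and heat shock proteins and well left of 0 for the ATF4 and sterol lists, the cytokine list lies left with pycnogenol-positive serum (-0.49) but near 0 with control serum (-0.02), and ribosomal proteins and oxidative phosphorylation stay near 0 on all 7 arrays.

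The largest fall of any gene was in RAB39B, a small GTPase of vesicle traffic that stands in none of the lists. It read 232 and 130.4 with serum and 786, 1173, 1015, 752 and 998 without (difference -2.42, SE 0.23, adjusted p = 0.000191), and another of its probe sets gave -2.47. Both serum signals lay below 269, as they did for 13 of the 67 genes in all, so the size of this fall is uncertain. DNAL4, a dynein light chain, read 123 and 83.3 against 337 to 414 (difference -1.82, SE 0.23, adjusted p = 0.00129), and ECM2, an extracellular matrix protein, 206 and 220.0 against 617 to 853 (difference -1.76, SE 0.16, adjusted p = 0.000158). These 2 also had serum signals under the minimum. INHBE, an inhibin beta chain, read 686 and 305 with serum and 1336, 1566, 1114, 1316 and 1198 without (difference -1.50, SE 0.25, adjusted p = 0.00479). TMCC3, a membrane protein of the endoplasmic reticulum, fell to 541 and 302 from signals of 1001 to 1388 (difference -1.49, SE 0.21, adjusted p = 0.00214). KIF21B, a kinesin motor, read 429 and 184 with serum and 735, 1055, 1071, 487 and 833 without (difference -1.52, SE 0.33, adjusted p = 0.0214), with the resveratrol signal close to that of control serum, and was not called without the pycnogenol-positive serum array (adjusted p = 0.252). TOX2, a nuclear HMG-box protein, read 2400.3 and 2337 against 4527 to 5546 (difference -1.05, SE 0.10, adjusted p = 0.000158), and there the 2 sera were nearly equal.

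The 2 sera often differed in the size of these changes. That both lie on the same side of the other arrays follows from how the 67 genes were chosen. Against the mean of the same 5 arrays, which both sera share as reference, 37 of the 67 genes differed by at most 0.5 (log2) between the sera, and 52 were further from the reference with the pycnogenol-positive serum. That was so for 46 of the 56 lower genes and 6 of the 11 higher ones. The closest pairs were FLG, filaggrin (-1.11 with control serum and -1.11 with the other), SH3TC2, an endosomal recycling protein (-1.25 and -1.26), ID2 (1.55 and 1.57), TOX2 (-1.03 and -1.07) and INSIG1 (-1.98 and -2.03). The widest were DDIT4 (-0.41 and -3.12), IL1A (-0.66 and -2.86), KLF9 (-0.45 and -1.97), KLF4 (-0.78 and -2.11) and JMY, an actin nucleator (-0.51 and -1.74). Without the pycnogenol-positive serum array none of these 5 was called (adjusted p = 0.0717 to 0.285). With 1 array for each serum, the difference between them has no replicate check.

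**Figure D5:**
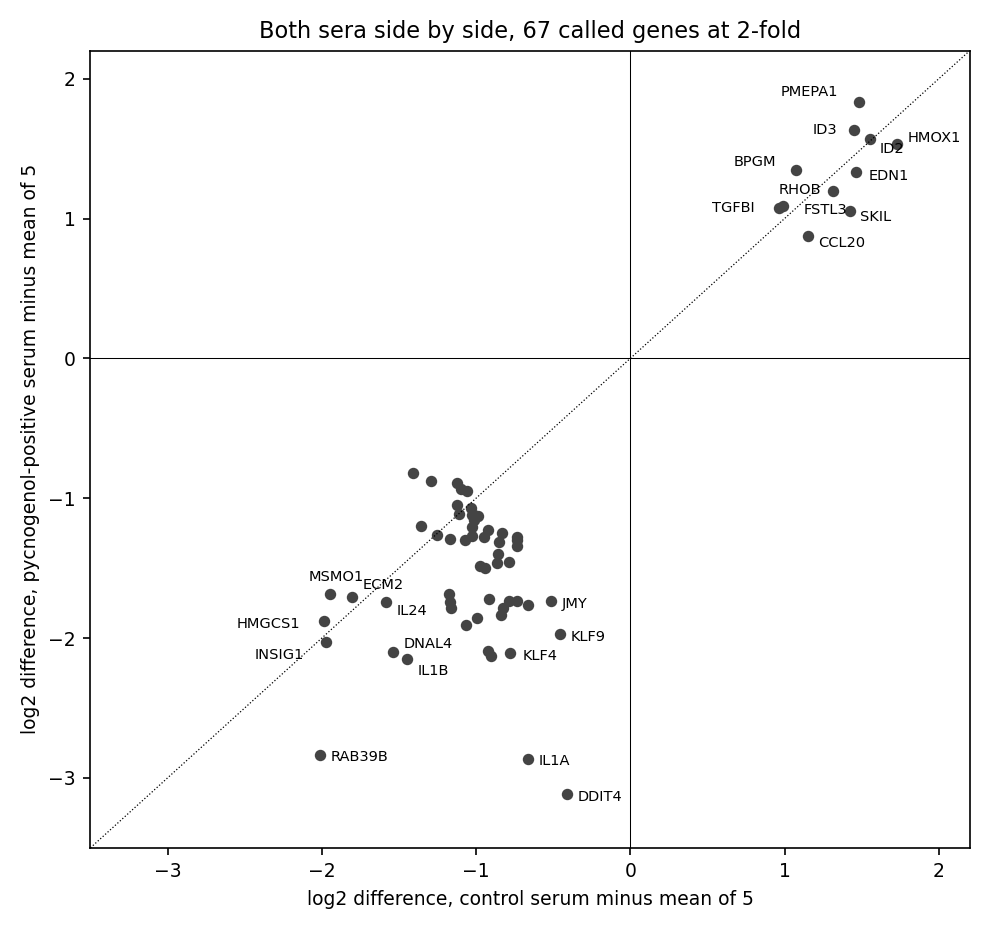
Each of the 67 called genes at 2-fold or more is placed by its log2 difference from the mean of the 5 other arrays with control serum (horizontal) and with pycnogenol-positive serum (vertical), and the dotted line marks equal differences. Equal sign in both sera follows from the choice of the genes. In the plot 46 of the 56 lower genes fall below the line, and DDIT4 and IL1A lie furthest from it.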

How the data were processed

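The deposited values were linear signal intensities per probe set, which the authors obtained with MAS5 per the submitters' processing notes. The version, detection calls, scan dates and batches were not given in the sources used here, so serum and any batch cannot be told apart. A mean trimmed by 2% at either end was 1000 on each array. Array number limits the precision, as no molecule counts underlie a signal.

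Probe sets were named from the platform annotation: 41091 had 1 gene, 1801 several and 11777 none, and symbols were updated for 41037 through a RefSeq table for GRCh38. Signals under the 25th percentile (34.9) were raised to it and put on the log2 scale (Python 3.11.15, pandas 2.3.3). Probe sets with a mean signal of at least 269 entered limma 3.58.1 (lmFit and eBayes with trend, R 4.3.3). The fit set 2 arrays against 5 with 5 residual degrees of freedom and Benjamini-Hochberg adjustment over 20336 probe sets. It was also run on simulated data with independent noise, which could not check the effect of unrepeated treatments or of a batch. A p-value here measures only the spread between these arrays. A gene was read from its brightest probe set and called at an adjusted p below 0.05. Genes named were the 15 largest called differences in each direction at 2-fold with separate sides and the same sign under quantile normalization and cyclic loess, at most 5 called members of each list (or the 2 largest where none was called), and the 5 largest and 5 smallest gaps between sera among the 67 genes. Other list members were named after their values were seen. Of the genes past the minimum, 8285 matched a RefSeq promoter. The comparison, members and gene lists were chosen with earlier results of these data known. Alternatives covered scaling, filter, floor, probe sets, variance prior, reference and each array left out.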

Additional observations from a re-analysis of the deposited data

Results flagged for a closer look

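Among the 5 cultures without test serum, 141 named genes and list medians were checked for a single array far from the other 4, by the gap to its nearest neighbour over the whole range (critical value 0.71 for 5 arrays). Chance alone flags about 1 in 20, and 7 passed. SKIL was lowest in the resveratrol culture, at a signal of 3390.2 and a ratio of 0.764. SPRY2 was highest with epicatechin (signal 7218.2, ratio 0.738) and RPS14, a ribosomal protein, highest with taxifolin (signal 56754, ratio 0.742). The median of the aminoacyl-tRNA synthetases was lowest with catechin (-0.04 from the mean of the 5, ratio 0.795), and that of the NF-kB pathway lowest with epicatechin (-0.15, ratio 0.742). The ribosomal protein median was highest with taxifolin (0.06, ratio 0.711) and the median of vasoactive and growth factor ligands highest with resveratrol (0.05, ratio 0.745).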

How the results depend on the processing

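No paired analysis was possible because each treatment had 1 array and the labels match no culture to another. The number of called probe sets was 1264 and changed to 374 with no signal filter, 814 without a variance trend and 51 against the untreated culture alone; leaving out 1 array gave 267 to 1310. The number at least 2-fold with separate sides was 132 and changed to 781 with no filter, 302 against the untreated culture alone, 73 with only probe sets past the 75th percentile, 865 at 1.5-fold and 31 at 3-fold; leaving out 1 array gave 128 to 304. Fewer arrays or more dim probe sets enter those settings by construction. Quantile normalization, cyclic loess and median centring moved the share called higher from 38.9% to 41.8%, 42.3% and 44.2%. Of 107 called genes that the text names by rule, none reversed under any alternative run; 3 lost the call under each scaling, 72 with no filter, 86 against the untreated culture, 64 without the pycnogenol-positive serum array and 20 without the control serum array. The lack of reversals was largely fixed beforehand, as 1260 of the 1264 called probe sets had separate sides. With separate sides, leaving out an array or using the untreated culture alone cannot change the sign. The largest differences were also chosen for equal sign under quantile normalization and cyclic loess. For list medians the yardstick was the SD of the list's median over the 5 arrays without test serum. Of 504 list medians under alternatives, 420 lay within that SD of the main value, and 30 changed sign. Of these 28 were in 7 lists whose medians lay between -0.0154 and 0.0288, which have no settled direction, and 2 in lists further from 0, both with probe sets of suffix _x_at or _s_at left out: immediate early factors to 0.0102 and the circadian clock to -0.0094. The cause was not tested.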

Other observations

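Noncoding transcripts and mitochondrially encoded ones were looked at after the values were seen, and both are given as values. Of 311 long noncoding RNAs past the minimum by RefSeq class, 3 (0.965%) were called higher and 25 (8.04%) lower, with a median of -0.17, against 3.11% and 4.62% of 9508 protein-coding genes. LINC02806 was the largest of these falls named among the 67 genes, with signals of 1185 and 652 in the serum cultures and 2230.3 to 2442 in the others (difference -1.43, SE 0.18, adjusted p = 0.00115). The long noncoding RNAs were dimmer, with a median signal of 591.8 against 2290.9 for the protein-coding genes. Both serum arrays also had the lowest median signals, and the part of signal level in these shares was not tested.

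Of 7 mitochondrially encoded transcripts past the minimum, 3 were called lower by limma: ND4, a complex I subunit (-0.96, adjusted p = 0.00465), COX1, a complex IV subunit (-0.82, adjusted p = 0.0265), and ATP6, an ATP synthase subunit (-0.62, adjusted p = 0.0429), the last with overlapping sides. The falls were larger with pycnogenol-positive than with control serum: -1.33 and -0.60 for ND4, -1.07 and -0.58 for COX1, and -1.02 and -0.23 for ATP6. COX2, COX3, ND2 and ND6 were not called and had overlapping sides, and ND6 lay at 0.56 with control serum and -0.35 with the other. None of the 20 nuclear-encoded oxidative phosphorylation genes listed was called, and 0 of these 20 differed by 2-fold with separate sides.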
